A study of Arabidopsis thaliana with 21 samples.

Results

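The comparison set rosette leaf mRNA of 2 Arabidopsis thaliana lines with mutations in AtDXO1 (AT4G17620, here DXO1) side by side, dxo1-2 against the line labelled dxo1-1. Genes were tested if they passed a filter on level: 18331 of 33602 genes reached an average of 1 FPKM or more across the 6 libraries. The gene lists described below were chosen with earlier results of these data known. FPKM is fragments per kilobase of transcript, scaled by library depth. Each line had 3 libraries from plants 16 days old, raised on plates before a move to soil, in long days. Both lines carry a mutation in the same gene and neither is a control for the other. Wild type of the accession Col-0, with 3 libraries of the same age, is given beside them as a description and was not part of the test. The other 12 of the 21 samples in the series are small RNA libraries, and none of those is labelled dxo1-1, so they were not used. The labels give no insertion site or kind of mutation for either line. Nor do they tell if replicates are separate plants, and p-values then cover only the spread between these libraries, which may be technical.

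Proteins of the DXO family remove unusual or incomplete caps from the start of RNA, among them the cofactor NAD. Some of them also degrade the uncapped RNA from its 5′ end. In Arabidopsis, loss of DXO1 is known for pale, small plants with raised defence gene expression. Camalexin and alternative oxidase recur below. Camalexin is a sulfur-containing antimicrobial compound that Arabidopsis makes from tryptophan. Alternative oxidase is a mitochondrial enzyme that passes electrons to oxygen without pumping protons, and its genes are classic markers of mitochondrial stress.

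DXO1 itself differed most among genes lower in dxo1-2. Its mRNA stood at 6.67, 5.88 and 7.64 FPKM in dxo1-2 against 193, 195 and 249 in the dxo1-1-labelled libraries (log2 -4.78, SE 0.11, adjusted p = 1.02e-07, limma on log2(FPKM + 1)). Col-0 libraries held 10.0, 11.97 and 10.8 FPKM. All 3 libraries labelled dxo1-1 lay far above wild type and all 3 of dxo1-2 below it, with no overlap between any of the groups. The mean of the libraries labelled dxo1-1 was 212 ± 31.5 (SD, n = 3), 31.5 times the 6.73 ± 0.882 of dxo1-2. The level under the label dxo1-1 is the opposite of a loss of transcript, and 1 value per gene leaves unknown which stretch of the mRNA was present. Every direction below is therefore given against the libraries labelled dxo1-1.

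The genes beside DXO1 on chromosome 4 differed in both directions. AT4G17616, the gene before DXO1 in locus order, stood at 5.04, 4.96 and 4.67 FPKM in dxo1-2 against 1.56, 1.67 and 1.57 in the dxo1-1-labelled libraries (log2 1.18, SE 0.093, adjusted p = 3.89e-05), and at 3.3, 3.96 and 4 in Col-0. It was thus lowest where DXO1 was highest. CKB2, the next gene on the other side, encodes a regulatory subunit of casein kinase II. Its values were 38.5, 38.8 and 42.3 FPKM in dxo1-2 against 59.1, 60.3 and 66.8 in the dxo1-1-labelled libraries (log2 -0.63, SE 0.06, adjusted p = 0.000113), with Col-0 at 35.0, 37.9 and 37.3 FPKM, close to dxo1-2. Further out, AT4G17650 was higher in dxo1-2 (log2 0.31, adjusted p = 0.00304). AT4G17670 was lower (log2 -0.51, adjusted p = 0.00129), but both lines lay far above Col-0 there, at 36.1, 39 and 42.9 FPKM in dxo1-2 against 58.9, 51.1 and 59.2 in the dxo1-1-labelled libraries. Col-0 held 2.38, 2.11 and 2.94 FPKM. Of the other genes in the window, CBL1, a calcium sensor gene (log2 0.19, adjusted p = 0.075), AT4G17610 (log2 0.18, adjusted p = 0.282) and AT4G17660 (log2 -0.23, adjusted p = 0.198) did not pass. Without replicate 1 of the libraries labelled dxo1-1, CBL1 passed at log2 0.25 (adjusted p = 0.0351). AT4G17612 was listed at 0 in every library. The sources used here do not say if counting used strand, so reads of closely spaced or overlapping genes are of uncertain origin.

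**Figure D1:**
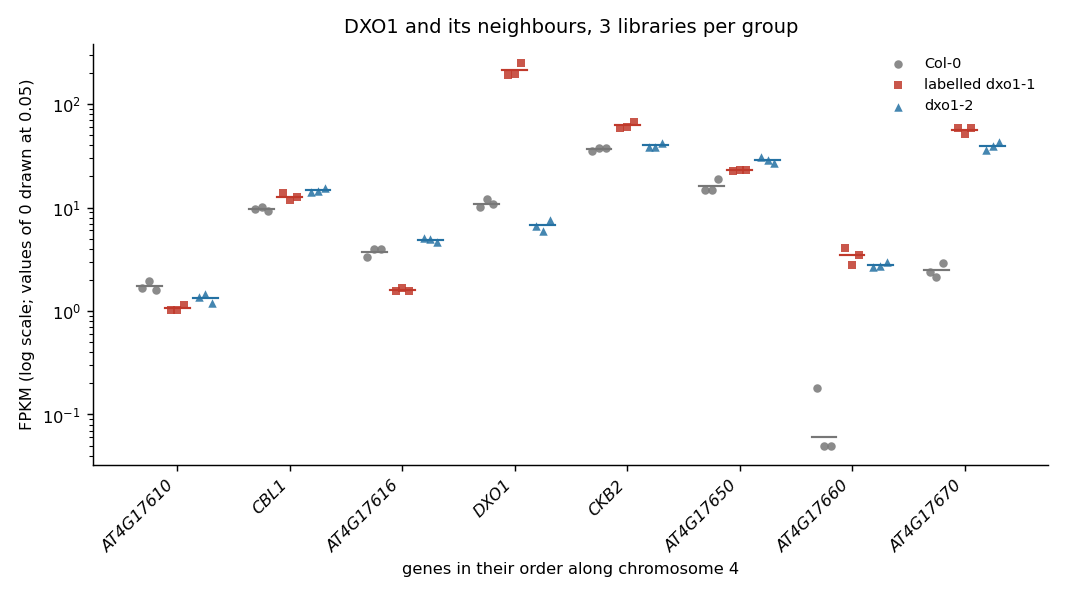
FPKM on a log axis of DXO1 and the measured genes within 4 positions of it, with a point per library, a bar at each mean, and Col-0, the libraries labelled dxo1-1 and dxo1-2 side by side. DXO1 lies between 193 and 249 FPKM in the libraries labelled dxo1-1 and below 8 in dxo1-2, while AT4G17616 shows the opposite order.

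Across all genes tested, 7250 passed (Benjamini-Hochberg adjusted p below 0.05), which was 39.6% of 18331. Of these, 4169 (22.7%) were higher in dxo1-2 and 3081 (16.8%) were lower, the shares to set beside those of each gene list. In bulk leaf tissue, fewer cells of a type and less RNA per cell cannot be told apart. Most differences were small. A fold under 1.5 described 88.9% of the higher and 72.5% of the lower genes. With a fold of at least 2 on the log2(FPKM + 1) scale, 55 genes (0.300%) were higher and 305 (1.66%) lower, so the large differences lay mainly on the side of the libraries labelled dxo1-1. The 3 libraries of each line did not overlap for 5553 genes (30.3%) in the higher and 3817 genes (20.8%) in the lower direction. The median log2 difference of all genes tested was 0.055, and median-centring the libraries turned the split from 57.5% to 48.6% higher. The numbers of small differences in each direction therefore depend on the scaling, while the counts with a fold of at least 2 became 53 and 332.

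**Figure D2:**
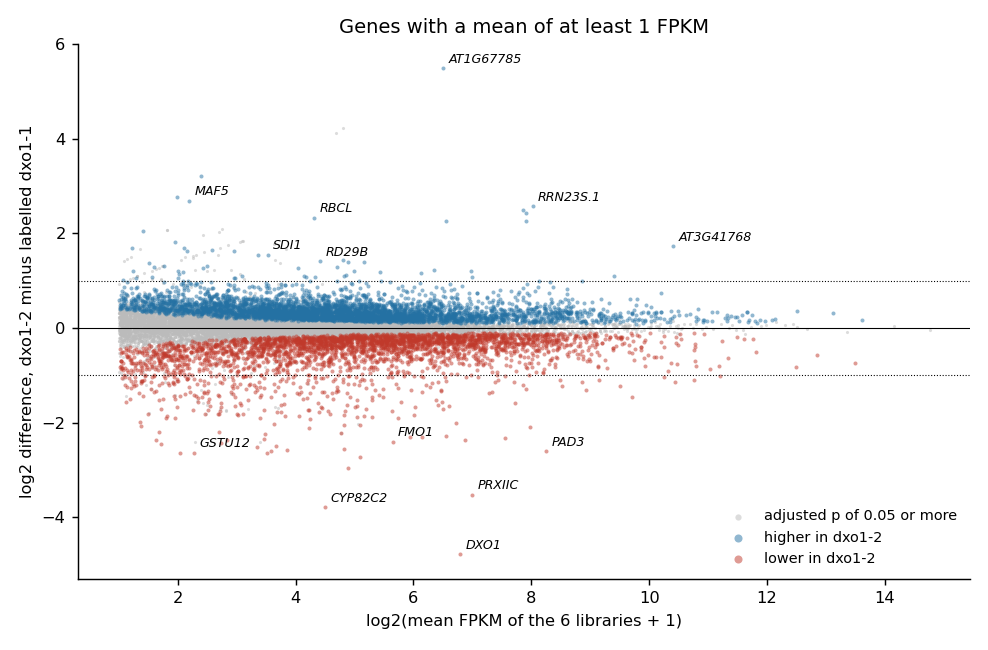
The log2 difference (dxo1-2 minus the libraries labelled dxo1-1) of 18331 genes against log2(mean FPKM of the 6 libraries + 1), blue for higher in dxo1-2, red for lower, grey for genes that did not pass, with dotted lines at a fold of 2. The lower side holds 305 genes past a fold of 2 and the higher side 55, among them chloroplast genes.

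The depth estimated from the smallest steps between low FPKM values was 17.5 to 20.4 M fragments per library in the 6 libraries. Libraries of 1 line correlated at 0.989 to 0.991 over the genes tested and libraries of different lines at 0.975 to 0.977. All 4 leaf markers fixed for the check were present, with a summed level of 25092 to 28243 FPKM in the libraries labelled dxo1-1 and 27117 to 27417 in dxo1-2. Seed storage genes summed to at most 0.32 FPKM, and the root genes COBL9, EXPA7, FRO2 and IRT1 stayed under 0.3 FPKM, IRT1 at 0. BGLU23 and TIP2;3, also in the root list, were measured in both lines. The 6 root genes summed to 368 to 375 FPKM in the libraries labelled dxo1-1 and 293 to 327 in dxo1-2, nearly all of it BGLU23. The ribosomal RNA gene AT3G41768 and chloroplast RNA were higher in dxo1-2 replicates 2 and 3 than in any other library, as described at the end.

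The lowest genes in dxo1-2 after DXO1 were CYP82C2 and PRXIIC. CYP82C2, a cytochrome P450 that oxidises an indole cyanogenic defence compound, stood at 1.96, 1.63 and 2.6 FPKM in dxo1-2 against 41.7, 41.8 and 39.2 in the dxo1-1-labelled libraries (log2 -3.79, SE 0.11, adjusted p = 3.64e-07). Col-0 held 1.01, 0.76 and 0.41 FPKM, so dxo1-2 lay a little above wild type and the libraries labelled dxo1-1 far above both. The peroxiredoxin gene PRXIIC (AT1G65970) stood at 23.9, 18.6 and 16.4 FPKM in dxo1-2 against 247, 237 and 219 in the dxo1-1-labelled libraries (log2 -3.52, SE 0.12, adjusted p = 5.57e-07), and at 4.07, 3.29 and 5.34 in Col-0. PRXIIC has close copies in its family whose reads may be shared. Of these, PRXIID was listed at 0 in all 3 libraries of dxo1-2 and at 3.77, 2.72 and 3.07 FPKM in the libraries labelled dxo1-1.

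Exporter and peroxidase genes were also among the 12 lowest. DTX1, which encodes an efflux carrier for toxic compounds, stood at 2.93, 2.51 and 3.08 FPKM in dxo1-2 against 20.05, 22.9 and 18.8 in the dxo1-1-labelled libraries (log2 -2.49, SE 0.096, adjusted p = 9.25e-07). DTXL1, next to it in locus order and related in sequence, stood at 2.61, 2.05 and 2.49 FPKM in dxo1-2 against 18.9, 17.1 and 22.2 in the dxo1-1-labelled libraries (log2 -2.59, adjusted p = 1.46e-06), and reads of the pair may be shared. Prx37, a cell wall peroxidase gene, stood at 3.27, 3.53 and 2.74 FPKM in dxo1-2 against 27.0, 21.5 and 23.1 in the dxo1-1-labelled libraries (log2 -2.57, adjusted p = 1.22e-06). All of these were below 1.5 FPKM in every Col-0 library, so both lines lay above wild type. The dark-inducible dioxygenase gene DIN11 had another pattern, at 10.2, 12.2 and 10.1 in Col-0 and at 1.93, 2.16 and 2.02 FPKM in dxo1-2 against 14.8, 17.0 and 16.9 in the dxo1-1-labelled libraries (log2 -2.50, adjusted p = 5.57e-07), so dxo1-2 lay below wild type and the libraries labelled dxo1-1 above it.

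Genes given here only by locus name were also among the lowest. AT4G12735 stood at 11.0, 7 and 6.51 FPKM in dxo1-2 against 60.9, 59.7 and 54.1 in the dxo1-1-labelled libraries (log2 -2.72, adjusted p = 7.56e-06), AT2G21640 at 7.67, 8.32 and 5.88 FPKM in dxo1-2 against 44.2, 47.5 and 50.9 in the dxo1-1-labelled libraries (log2 -2.56, adjusted p = 1.57e-06). AT5G24640 stood at 4.42, 1.37 and 1.34 FPKM in dxo1-2 against 21.8, 17.8 and 16.1 in the dxo1-1-labelled libraries (log2 -2.65, adjusted p = 0.000259). The lines did not overlap in any of these 3, as the naming rule required. Col-0 held 8.62, 10.3 and 7.22 FPKM of AT2G21640, overlapping dxo1-2. It held 0.8, 0.38 and 0.52 of AT4G12735 and 0, 0 and 0.31 of AT5G24640, below both lines. AT1G79075 stood at 21.7, 0.38 and 6.82 FPKM in dxo1-2 against 40.5, 54.3 and 48.4 in the dxo1-1-labelled libraries (log2 -2.95, SE 0.83, adjusted p = 0.0221). AT1G79075 held 18.57, 8.27 and 13.35 FPKM in Col-0, within the range of dxo1-2. Its dxo1-2 values ranged widely, and the call was lost without replicate 2 (adjusted p = 0.0654) or 3 (adjusted p = 0.0555) of the libraries labelled dxo1-1, and without replicate 3 of dxo1-2 (adjusted p = 0.0502).

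Genes of tryptophan and camalexin synthesis had the lowest median of the gene lists. Of 14 members, all tested, 11 were lower and 3 higher in dxo1-2, and none missed the threshold. That is 78.6% lower, against 16.8% of all genes tested, with a median log2 of -0.90 against 0.055 over all genes. The counts were the same when any one library was left out. CYP82C2, described above, is one of them. ASA1, TSA1, TSB1, CYP79B2, CYP79B3, CYP71A12, GGP1, WRKY33 and ABCG36 fall outside the naming rule and were named after their values were seen.

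The first steps make tryptophan. ASA1, the committed enzyme of tryptophan synthesis, stood at 47.6, 50.3 and 49.2 FPKM in dxo1-2 against 67.2, 69.1 and 72.0 in the dxo1-1-labelled libraries (log2 -0.49, adjusted p = 7.13e-05). TSA1 and TSB1, the subunits of tryptophan synthase, were lower by more, TSA1 at 93.4, 95.5 and 92.5 FPKM in dxo1-2 against 172, 175 and 173 in the dxo1-1-labelled libraries (log2 -0.88, adjusted p = 8.52e-07) and TSB1 at 197, 195 and 212 FPKM in dxo1-2 against 373, 383 and 397 in the dxo1-1-labelled libraries (log2 -0.93, adjusted p = 2.24e-06). For ASA1 dxo1-2 lay below the 53.9, 59.0 and 55.5 FPKM of Col-0, and for TSB1 it lay close to the 185, 199.7 and 186 FPKM of Col-0.

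Next, CYP79B2 and CYP79B3 convert tryptophan to indole-3-acetaldoxime, the branch point to camalexin and indole glucosinolates. The pair went opposite ways. CYP79B2 stood at 154, 151 and 151 FPKM in dxo1-2 against 210.0, 211 and 210 in the dxo1-1-labelled libraries (log2 -0.47, adjusted p = 1.4e-05) and CYP79B3 at 46.7, 45.6 and 49.6 FPKM in dxo1-2 against 35.7, 36.8 and 37.4 in the dxo1-1-labelled libraries (log2 0.36, adjusted p = 0.000597). Col-0 held 133, 147 and 137 FPKM of CYP79B3, above both lines.

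The later enzymes of camalexin synthesis were lower. CYP71A13, which dehydrates the oxime, stood at 36.8, 37.0 and 36.6 FPKM in dxo1-2 against 198, 188 and 198 in the dxo1-1-labelled libraries (log2 -2.37, SE 0.038, adjusted p = 1.44e-08), and its tandem copy CYP71A12 at 21.8, 22.0 and 22.1 FPKM in dxo1-2 against 76.0, 74.5 and 77.0 in the dxo1-1-labelled libraries (log2 -1.74, adjusted p = 9.19e-08). These copies are close in sequence and could share reads. GSTU4, a glutathione transferase linked to camalexin synthesis, stood at 43.9, 42.4 and 37.7 FPKM in dxo1-2 against 137, 129.8 and 145 in the dxo1-1-labelled libraries (log2 -1.71, adjusted p = 9.04e-07). PAD3, the enzyme of the last step, stood at 85.4, 84.7 and 87.3 FPKM in dxo1-2 against 514, 522 and 536 in the dxo1-1-labelled libraries (log2 -2.60, SE 0.033, adjusted p = 6.72e-09), a ratio of means of 6.11. Col-0 held 8.9, 9.24 and 8.7 FPKM of PAD3, so dxo1-2 remained above wild type and far below the other line, with no overlap among the 9 libraries.

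Transport and regulation split. ABCG40, a membrane transporter gene, stood at 13.0, 12.7 and 13.4 FPKM in dxo1-2 against 50.2, 49.9 and 51.5 in the dxo1-1-labelled libraries (log2 -1.88, adjusted p = 1.39e-07). ABCG36, an exporter of indole compounds at the plasma membrane, was higher in dxo1-2 (log2 0.21, adjusted p = 0.00715), and so was WRKY33, the transcription factor known to activate PAD3 and CYP71A13, at 129, 133 and 132 FPKM in dxo1-2 against 113, 113 and 122 in the dxo1-1-labelled libraries (log2 0.18, adjusted p = 0.0091). The regulator and the enzyme genes it is known for therefore stood in opposite order between the lines. GGP1, which trims the glutathione conjugate, differed little (log2 -0.22, adjusted p = 0.00213).

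**Figure D3:**
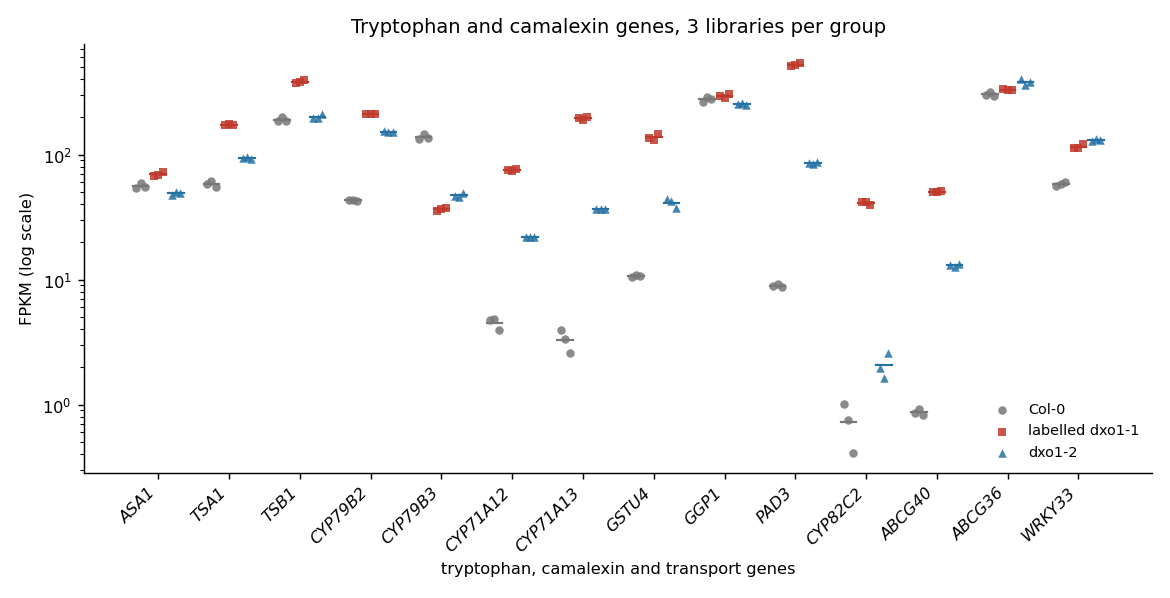
FPKM on a log axis of the 14 tryptophan and camalexin genes, with a point per library and a bar at each mean for Col-0, the libraries labelled dxo1-1 and dxo1-2. In PAD3, CYP71A13, CYP71A12, GSTU4 and ABCG40 dxo1-2 lies between Col-0 and the libraries labelled dxo1-1, while WRKY33, ABCG36 and CYP79B3 show dxo1-2 above the libraries labelled dxo1-1.

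Indole glucosinolates are the other product of the same oxime. Of 11 tested, 4 were higher (36.4%, against 22.7% of all genes), 1 lower (9.09%, against 16.8%) and 6 missed the threshold. IGMT2, a methyltransferase of this pathway with a close copy in IGMT1, was higher, at 27.3, 23.64 and 25.5 FPKM in dxo1-2 against 12.9, 12.4 and 15.3 in the dxo1-1-labelled libraries (log2 0.87, adjusted p = 0.000142), as was the regulator MYB51 (log2 0.46, adjusted p = 0.000285). MYB122 was lower (log2 -0.95, adjusted p = 0.00139). CYP83B1 (log2 0.04, adjusted p = 0.386) and SOT16 (log2 0.07, adjusted p = 0.273), the most abundant members that missed the threshold, overlapped between lines. Among 16 aliphatic glucosinolate genes 3 were higher, 3 lower (18.75% each, near the shares of all genes) and 10 missed the threshold. The higher count was 1 without replicate 1 of the libraries labelled dxo1-1 or replicate 2 or 3 of dxo1-2.

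Mitochondrial stress genes were lower in dxo1-2. Of 11 tested, 9 were lower (81.8%), none (0) higher, and the median log2 was -0.58. Over all genes tested 16.8% were lower, and the count for this list was 8 when any one library was left out. The alternative oxidase AOX1A stood at 114, 108 and 108 FPKM in dxo1-2 against 209.6, 211 and 212 in the dxo1-1-labelled libraries (log2 -0.93, SE 0.036, adjusted p = 9.04e-07) and AOX1D at 21.8, 22.6 and 22.0 FPKM in dxo1-2 against 59.9, 62.6 and 60.4 in the dxo1-1-labelled libraries (log2 -1.42, adjusted p = 4.12e-07). HSP23.5, a mitochondrial small heat shock protein, stood at 6.25, 5.79 and 8.92 FPKM in dxo1-2 against 28.2, 30.3 and 27.7 in the dxo1-1-labelled libraries (log2 -1.92, adjusted p = 1.81e-05). NAC013, a membrane-tethered factor that activates AOX1A, stood at 10.8, 12.2 and 11.3 FPKM in dxo1-2 against 23.54, 22.0 and 25.03 in the dxo1-1-labelled libraries (log2 -0.98, adjusted p = 2.22e-05). Its partner NAC017 did not pass (log2 0.09, adjusted p = 0.165) and neither did the dehydrogenase gene NDB1 (log2 0.08, adjusted p = 0.283). In Col-0, AOX1A held 29.9, 36.3 and 31.8 FPKM, below both lines, and this order held for 8 of the 9 lower members.

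Glutathione transferases, which attach glutathione to toxic or signalling compounds, followed the same direction in part. Of 36 tested, 19 were lower (52.8%, against 16.8% of all genes), 5 higher (13.9%, against 22.7%) and 12 missed the threshold. The median log2 was -0.18. GSTU12 stood at 0.28, 0.29 and 0.48 FPKM in dxo1-2 against 7.72, 7.29 and 7.06 in the dxo1-1-labelled libraries (log2 -2.63, SE 0.11, adjusted p = 1.32e-06), and its Col-0 values of 0.35, 0.41 and 0.51 overlapped those of dxo1-2. GSTU3 stood at 15.2, 15.8 and 17.8 FPKM in dxo1-2 against 57, 49.5 and 59.2 in the dxo1-1-labelled libraries (log2 -1.70, adjusted p = 2.81e-06) and GSTU24 at 6.33, 6.57 and 4.69 FPKM in dxo1-2 against 24.1, 16.6 and 19.4 in the dxo1-1-labelled libraries (log2 -1.61, adjusted p = 9.03e-05). The abundant GSTF9 (log2 0.08, adjusted p = 0.0982) and GSTF10 (log2 0.08, adjusted p = 0.06) did not pass. GSTF6 at 893, 872 and 820.4 FPKM in dxo1-2 against 1992, 1896 and 1814 in the dxo1-1-labelled libraries (log2 -1.14, adjusted p = 1.13e-06) and its near-identical copy GSTF7 (log2 -1.03, adjusted p = 2.22e-06) were among the 4 most abundant genes lower by a fold of at least 2, and reads may be shared between them.

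The other pair of that abundant group was HSC70-1 and KIC. HSC70-1, a cytosolic chaperone gene, stood at 1152, 1057 and 1122 FPKM in dxo1-2 against 2394, 2393 and 2297 in the dxo1-1-labelled libraries (log2 -1.09, SE 0.039, adjusted p = 7.56e-07), with Col-0 at 885, 929.9 and 834. KIC, which encodes a small calcium-binding protein, stood at 1621, 1594 and 1475 FPKM in dxo1-2 against 3183, 3227 and 3067 in the dxo1-1-labelled libraries (log2 -1.02, SE 0.042, adjusted p = 1.31e-06), with Col-0 at 202, 211 and 203. For both genes dxo1-2 lay above wild type and below the libraries labelled dxo1-1.

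Salicylic acid genes did not move as a block. Salicylic acid and N-hydroxypipecolate are the signals of systemic immunity. The list for their synthesis held 11 genes, among them the regulator SARD1 and UGT76B1, which modifies both signals. Of these, 6 were lower (54.5%, against 16.8% of all genes), 3 higher (27.3%, near the 22.7% of all genes) and 2 missed the threshold. FMO1, the last enzyme of N-hydroxypipecolate synthesis, differed most, at 15.9, 14.4 and 14.6 FPKM in dxo1-2 against 83.6, 84.6 and 81.5 in the dxo1-1-labelled libraries (log2 -2.40, SE 0.051, adjusted p = 7.78e-08). ALD1, the first enzyme of that route, stood at 31.0, 30.5 and 29.8 FPKM in dxo1-2 against 45.5, 50.6 and 51.0 in the dxo1-1-labelled libraries (log2 -0.67, adjusted p = 4.67e-05). UGT76B1, which adds glucose to N-hydroxypipecolate and salicylic acid, was lower too (log2 -1.08, adjusted p = 5.99e-06). SARD1, a transcription factor that activates both routes, was higher, at 91.4, 93.5 and 94.2 FPKM in dxo1-2 against 67.9, 65.9 and 70.3 in the dxo1-1-labelled libraries (log2 0.45, adjusted p = 6.92e-05). EDS5, the exporter of the salicylic acid precursor, did not pass (log2 -0.08, adjusted p = 0.182).

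Downstream of salicylic acid, of 17 genes 5 were higher (29.4%), 3 lower and 9 missed the threshold. PR1, the standard output gene, stood at 2826, 3118 and 2974 FPKM in dxo1-2 against 4147, 4211 and 4383 in the dxo1-1-labelled libraries (log2 -0.52, SE 0.042, adjusted p = 4.92e-05), and PR5 was lower as well (log2 -0.47, adjusted p = 1.16e-05). EDS1, a hub of immune receptor signalling, was higher, at 111, 116 and 118 FPKM in dxo1-2 against 78.6, 75.4 and 79.1 in the dxo1-1-labelled libraries (log2 0.56, SE 0.04, adjusted p = 2.34e-05). The glutaredoxin gene GRX480 was also higher (log2 0.45, adjusted p = 0.000193). BGL2 (log2 -0.08, adjusted p = 0.0516) and WRKY70 (log2 0.08, adjusted p = 0.0784) did not pass. BGL2 passed after median-centring at log2 -0.12 (adjusted p = 0.0328).

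Intracellular immune receptors of the NLR family showed 6 of 22 members higher (27.3%, near the 22.7% of all genes; 4 to 9 when single libraries were left out), 1 lower and 15 that did not pass. RPS2 was higher, at 29.1, 27.5 and 29.98 FPKM in dxo1-2 against 20.09, 19.7 and 20.7 in the dxo1-1-labelled libraries (log2 0.50, adjusted p = 0.000187), RPP13 at 54.1, 53.3 and 52.9 FPKM in dxo1-2 against 42.1, 40.2 and 40.9 in the dxo1-1-labelled libraries (log2 0.37, adjusted p = 0.000211). ADR1, a helper receptor, was the lower member (log2 -0.34, adjusted p = 0.000819).

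Of 22 genes of pattern-triggered immunity, the response to microbial patterns and damage peptides, 10 were lower (45.5%), 3 higher and 9 missed the threshold. The precursors of damage peptides led. PROPEP3 stood at 4.89, 8.75 and 5.42 FPKM in dxo1-2 against 25.7, 21.1 and 28.3 in the dxo1-1-labelled libraries (log2 -1.85, SE 0.19, adjusted p = 0.000139) and PROPEP2 at 0.99, 0.52 and 0.77 FPKM in dxo1-2 against 3.64, 4.52 and 3.73 in the dxo1-1-labelled libraries (log2 -1.50, adjusted p = 9.57e-05). PROPEP1 was lower at log2 -1.01 (adjusted p = 0.014), a call that was lost without replicate 2 of the libraries labelled dxo1-1 (adjusted p = 0.0508) and without replicate 1 (adjusted p = 0.053) or 3 (adjusted p = 0.0535) of dxo1-2. EFR, the receptor for bacterial elongation factor, was lower (log2 -0.51, adjusted p = 0.00466), while BAK1, the shared co-receptor, overlapped (log2 0.03, adjusted p = 0.772). Of 27 cysteine-rich receptor kinases 8 were lower (29.6%, against 16.8% of all genes) and 4 higher (14.8%, against 22.7%). CRK7 stood at 20.9, 20.4 and 22.2 FPKM in dxo1-2 against 36.1, 35.4 and 38.1 in the dxo1-1-labelled libraries (log2 -0.76, adjusted p = 2.12e-05). The lower count fell to 5, a share near that of all genes, without replicate 1 of either line.

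Among WRKY transcription factors 22 of 56 were lower (39.3%, against 16.8% of all genes), 5 higher and 29 missed the threshold. WRKY45 stood at 13.3, 15.2 and 15.02 FPKM in dxo1-2 against 55.8, 52.0 and 58.1 in the dxo1-1-labelled libraries (log2 -1.86, SE 0.067, adjusted p = 7.56e-07) and WRKY31 at 1.71, 2.47 and 1.99 FPKM in dxo1-2 against 7.78, 7.14 and 7.73 in the dxo1-1-labelled libraries (log2 -1.49, adjusted p = 2.76e-05). WRKY29 was lower too, at 5.15, 4.08 and 5.37 FPKM in dxo1-2 against 13.1, 14.0 and 13.5 in the dxo1-1-labelled libraries (log2 -1.31, adjusted p = 2.57e-05). WRKY18, an abundant member, did not pass (log2 0.08, adjusted p = 0.442). WRKY66 was listed at 0 in all 3 libraries of dxo1-2 and in Col-0, and at 1.3, 2.81 and 1.75 FPKM in the libraries labelled dxo1-1. Its mean was under the filter, so it was not tested.

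Senescence genes were lower in dxo1-2 nearly throughout. Of 22 tested, 18 were lower (81.8%, against 16.8% of all genes), 1 higher and 3 missed the threshold, with a median of -0.29. Leaving out single libraries gave 14 to 16 lower. SAG13, an early marker of leaf ageing, stood at 270.4, 285 and 284 FPKM in dxo1-2 against 677, 685 and 708 in the dxo1-1-labelled libraries (log2 -1.30, SE 0.035, adjusted p = 2.16e-07) and NAC042, a regulator of ageing, at 18.3, 19.4 and 20.0 FPKM in dxo1-2 against 43.1, 48.5 and 46.0 in the dxo1-1-labelled libraries (log2 -1.21, adjusted p = 2.96e-06). WRKY75 was lower (log2 -1.14, adjusted p = 0.000152). SEN1 (log2 0.26, adjusted p = 0.0814) and NYE2, of chlorophyll breakdown (log2 -0.15, adjusted p = 0.124), did not pass, and SEN1 passed as higher without replicate 1 of dxo1-2 (log2 0.38, adjusted p = 0.00985). The single higher member was SAG29, a sugar transporter gene named after its value was seen, at 20.4, 17.9 and 18.8 FPKM in dxo1-2 against 9.84, 10.1 and 9.01 in the dxo1-1-labelled libraries (log2 0.91, adjusted p = 3.72e-05). The late marker SAG12 was at most 0.18 FPKM and was not tested. SEN1 stood at 63.3, 72.3 and 59.5 FPKM in Col-0, above both lines.

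Ethylene genes were lower or did not pass. Of 20 tested, 12 were lower (60%, against 16.8% of all genes) and none (0) higher. The lower count was 9 to 12 when single libraries were left out. One gene passed as higher without replicate 2 or 3 of the libraries labelled dxo1-1. ACS2, which makes the ethylene precursor, stood at 5.73, 5.34 and 5.39 FPKM in dxo1-2 against 12.9, 13.4 and 13.7 in the dxo1-1-labelled libraries (log2 -1.14, SE 0.066, adjusted p = 7.46e-06). The output genes PR4 (log2 -1.09, adjusted p = 3.36e-07) and PR3 (log2 -0.85, adjusted p = 1.68e-05) were lower. PR4 stood at 355, 362 and 363 FPKM in dxo1-2 against 750.2, 768 and 787 in the dxo1-1-labelled libraries. EBF1 (log2 -0.08, adjusted p = 0.24) and CTR1 (log2 -0.14, adjusted p = 0.102), which repress the pathway, did not pass. Jasmonate genes gave 7 higher (25%, near the 22.7% of all genes) and 8 lower (28.6%, against 16.8%) of 28. The repressor JAZ7 was higher in dxo1-2 (log2 0.80, adjusted p = 0.00021). The repressor JAZ8 was lower (log2 -1.16, adjusted p = 0.0158), a call lost without replicate 2 of dxo1-2 (adjusted p = 0.059). The lower jasmonate count was 4 without replicate 2 of the libraries labelled dxo1-1, and 3 or 4 without replicate 2 or 3 of dxo1-2.

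Chaperone and oxidative stress lists were mixed. Of 17 endoplasmic reticulum folding genes 10 were lower (58.8%, against 16.8% of all genes) and 1 higher. CRT3, a calreticulin of immune receptor folding, stood at 423, 416 and 421 FPKM in dxo1-2 against 578, 556 and 607 in the dxo1-1-labelled libraries (log2 -0.46, SE 0.038, adjusted p = 4.52e-05), and SHD, an HSP90 of this compartment, was lower (log2 -0.30, adjusted p = 0.000539). The higher one was BIP3, the stress-induced form of the main chaperone, at 33.4, 31.8 and 32.2 FPKM in dxo1-2 against 21.7, 20.13 and 21.7 in the dxo1-1-labelled libraries (log2 0.59, adjusted p = 6.43e-05). Of 17 heat shock genes 6 were lower (35.3%), among them the factors HSFA2 (log2 -0.88, adjusted p = 0.000473) and HSFB1 (log2 -0.81, adjusted p = 6.04e-06), and 2 were higher, among them HSFA7A (log2 0.67, adjusted p = 0.0127).

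Among 16 oxidative stress genes 5 were higher (31.2%, against 22.7% of all genes) and 7 lower (43.8%, against 16.8%). OXI1, a kinase activated by peroxide, stood at 2.62, 2.31 and 1.95 FPKM in dxo1-2 against 6.42, 6.61 and 6.58 in the dxo1-1-labelled libraries (log2 -1.20, adjusted p = 5.37e-05), and the zinc finger gene ZAT12 at 117, 118 and 105 FPKM in dxo1-2 against 226, 237 and 213 in the dxo1-1-labelled libraries (log2 -0.99, adjusted p = 7.42e-06). Superoxide dismutases went opposite ways. The iron enzyme FSD1 stood at 988, 1019.9 and 954 FPKM in dxo1-2 against 1683, 1739 and 1558 in the dxo1-1-labelled libraries (log2 -0.75, SE 0.046, adjusted p = 1.05e-05) and the copper enzyme CSD2 at 1097, 1088 and 1037 FPKM in dxo1-2 against 728, 719.9 and 671 in the dxo1-1-labelled libraries (log2 0.60, SE 0.041, adjusted p = 1.69e-05). Cytosolic CSD1 (log2 0.09, adjusted p = 0.0826) and mitochondrial MSD1 (adjusted p = 0.974) did not pass. The higher count was 3 without replicate 2 of the libraries labelled dxo1-1 and without each dxo1-2 replicate.

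Sulfur starvation genes were higher in dxo1-2. These genes respond to sulfate supply and adjust its reduction to sulfide. Of 13 tested, 9 were higher (69.2%, against 22.7% of all genes) and 1 lower, with a median of 0.28. SDI1, a repressor of glucosinolate synthesis under low sulfur, stood at 16.0, 17.8 and 14.6 FPKM in dxo1-2 against 3.95, 5.18 and 5.52 in the dxo1-1-labelled libraries (log2 1.55, SE 0.12, adjusted p = 3.13e-05), and at 19.1, 17.3 and 20.9 in Col-0. LSU1 stood at 44.8, 57.4 and 49.4 FPKM in dxo1-2 against 15.2, 20.7 and 20.0 in the dxo1-1-labelled libraries (log2 1.40, adjusted p = 7.38e-05) and LSU3 at 35.3, 39.7 and 44.5 FPKM in dxo1-2 against 13.4, 15.7 and 12.8 in the dxo1-1-labelled libraries (log2 1.45, adjusted p = 1.76e-05). APR3, an enzyme of sulfate reduction, stood at 98.1, 93.3 and 96.7 FPKM in dxo1-2 against 42.7, 41.4 and 43.5 in the dxo1-1-labelled libraries (log2 1.16, SE 0.041, adjusted p = 6.95e-07). Its Col-0 values of 61.2, 65.9 and 59.4 lay between the lines, as did those of LSU3 at 20.4, 22.7 and 23.2. BGLU30, a glucosidase also known from dark and senescing leaves, was the lower one at 3.87, 3.28 and 3.1 FPKM in dxo1-2 against 7.88, 7.18 and 7.73 in the dxo1-1-labelled libraries (log2 -0.96, adjusted p = 0.000118). APS1 (log2 0.02, adjusted p = 0.674) and SIR (log2 -0.09, adjusted p = 0.0931), the most abundant enzymes of the list, did not pass.

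Nuclear photosynthesis genes were higher in dxo1-2 by small steps. Of 31 photosystem and electron transport genes 26 were higher (83.9%, against 22.7% of all genes) and 1 lower. Their median was 0.18 and their highest value 0.40. Of 20 antenna proteins 12 were higher (60%) and 1 lower. After median-centring the higher counts were 15 and 6. The photosystem I subunit PSAH-1 stood at 2051, 2074 and 2115 FPKM in dxo1-2 against 1592, 1623 and 1510.0 in the dxo1-1-labelled libraries (log2 0.40, SE 0.035, adjusted p = 6.79e-05), and LHCB2.3, an antenna protein of photosystem II, at 577, 584 and 567 FPKM in dxo1-2 against 437, 459 and 416 in the dxo1-1-labelled libraries (log2 0.40, SE 0.041, adjusted p = 0.000151). Col-0 lay above both lines for all 26 and all 12 higher members of these lists, for LHCB2.3 at 2232, 2299 and 2177 FPKM. CAB1, the most abundant antenna gene, did not pass (log2 -0.05, adjusted p = 0.481). It passed as lower without replicate 3 of the libraries labelled dxo1-1 (adjusted p = 0.0394). CAB1, CAB2 and CAB3 are near-identical copies, so their separate levels are uncertain.

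LHCB4.3 went against the list. This stress-related antenna gene stood at 30.7, 32.2 and 31.7 FPKM in dxo1-2 against 67.6, 67.5 and 61.6 in the dxo1-1-labelled libraries (log2 -1.03, SE 0.05, adjusted p = 2.94e-06) and at 20.5, 17.8 and 17.65 in Col-0, so it was the one lower antenna member and was lowest in wild type. Of 18 Calvin-Benson cycle genes 5 were higher (27.8%, against 22.7% of all genes) and 6 lower (33.3%, against 16.8%). The aldolase FBA1 differed most, at 906, 864 and 884 FPKM in dxo1-2 against 1665, 1697 and 1634 in the dxo1-1-labelled libraries (log2 -0.91, SE 0.032, adjusted p = 6.66e-07), with Col-0 at 748, 754 and 728. The small subunits of Rubisco RBCS1A (log2 0.05, adjusted p = 0.515) and RBCS3B (log2 -0.02, adjusted p = 0.715) did not pass.

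Chlorophyll synthesis genes were higher as a group. Of 21 tested, 16 were higher (76.2%, against 22.7% of all genes), 1 lower and 4 missed the threshold, and centring left 15 higher. PORB, which reduces protochlorophyllide in light, stood at 1014, 977 and 965 FPKM in dxo1-2 against 646, 645 and 635 in the dxo1-1-labelled libraries (log2 0.62, SE 0.031, adjusted p = 3.56e-06), with Col-0 at 1500.0, 1590.1 and 1499.6. GUN4, which activates magnesium chelatase, stood at 465, 471 and 448 FPKM in dxo1-2 against 344, 349 and 331 in the dxo1-1-labelled libraries (log2 0.43, adjusted p = 4.5e-05), here with dxo1-2 above the 358, 367 and 336 FPKM of Col-0. GUN5, the large chelatase subunit (log2 0.01, adjusted p = 0.939), and HEMA1, which commits precursors to the pathway (log2 0.07, adjusted p = 0.147), did not pass.

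Cell cycle and DNA replication genes were higher in dxo1-2. Of 25 tested, 17 were higher (68%, against 22.7% of all genes) and none (0) lower, with a median of 0.36. The higher count was 11 without replicate 1 of dxo1-2. Among the 17, the Col-0 mean lay above both lines in 9, between them in 4 and below both in 4. RNR1, the large subunit of ribonucleotide reductase, stood at 24.9, 25.4 and 24.4 FPKM in dxo1-2 against 15.9, 16.4 and 15.9 in the dxo1-1-labelled libraries (log2 0.60, SE 0.049, adjusted p = 4.81e-05), and the replication clamp PCNA1 at 32.1, 33 and 27.5 FPKM in dxo1-2 against 21.6, 20.3 and 19.6 in the dxo1-1-labelled libraries (log2 0.56, SE 0.076, adjusted p = 0.000668). CDC20.1, an activator of mitotic exit, stood at 12.02, 11.1 and 12.03 FPKM in dxo1-2 against 6.58, 6.49 and 9.25 in the dxo1-1-labelled libraries (log2 0.61, adjusted p = 0.00497). CDKA;1, the main cell cycle kinase (log2 0.11, adjusted p = 0.124), and CYCD3;3 (log2 -0.08, adjusted p = 0.457) did not pass. Neither tested meristem marker passed. STM (log2 -0.08, adjusted p = 0.665) and KNAT1 (log2 -0.04, adjusted p = 0.84) overlapped between the lines, and the 7 meristem and flower genes summed to 6.99 to 7.47 FPKM in the libraries labelled dxo1-1 and 5.55 to 7.66 in dxo1-2. The kinase inhibitor SIM, which slows division, was also higher in dxo1-2 (log2 0.51, adjusted p = 0.000738).

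Cold and dehydration genes were mostly higher. Of 22 tested, 12 were higher (54.5%, against 22.7% of all genes) and 5 lower. RD29B, a protective protein gene induced by abscisic acid, stood at 30.03, 29.0 and 30.6 FPKM in dxo1-2 against 11.2, 9.17 and 11.6 in the dxo1-1-labelled libraries (log2 1.41, SE 0.085, adjusted p = 8.77e-06), with Col-0 at 0.87, 1.09 and 1.08. COR15B, which protects chloroplast membranes, stood at 153, 156 and 150.3 FPKM in dxo1-2 against 87.6, 86.5 and 100.3 in the dxo1-1-labelled libraries (log2 0.74, adjusted p = 3.67e-05), and KIN1 was higher (log2 0.72, adjusted p = 4.66e-05). The cold factor CBF2 was lower (log2 -0.76, adjusted p = 0.000808). LTI30 (log2 0.08, adjusted p = 0.438) and LEA4-5 (log2 -0.06, adjusted p = 0.61) did not pass. LTP4, a lipid transfer protein gene with a close copy beside it, was the most abundant nuclear protein-coding gene higher by a fold of at least 2, at 939.6, 938 and 883 FPKM in dxo1-2 against 444, 431 and 418 in the dxo1-1-labelled libraries (log2 1.09, SE 0.038, adjusted p = 6.8e-07), with Col-0 at 45.4, 54.2 and 50.4.

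**Figure D4:**
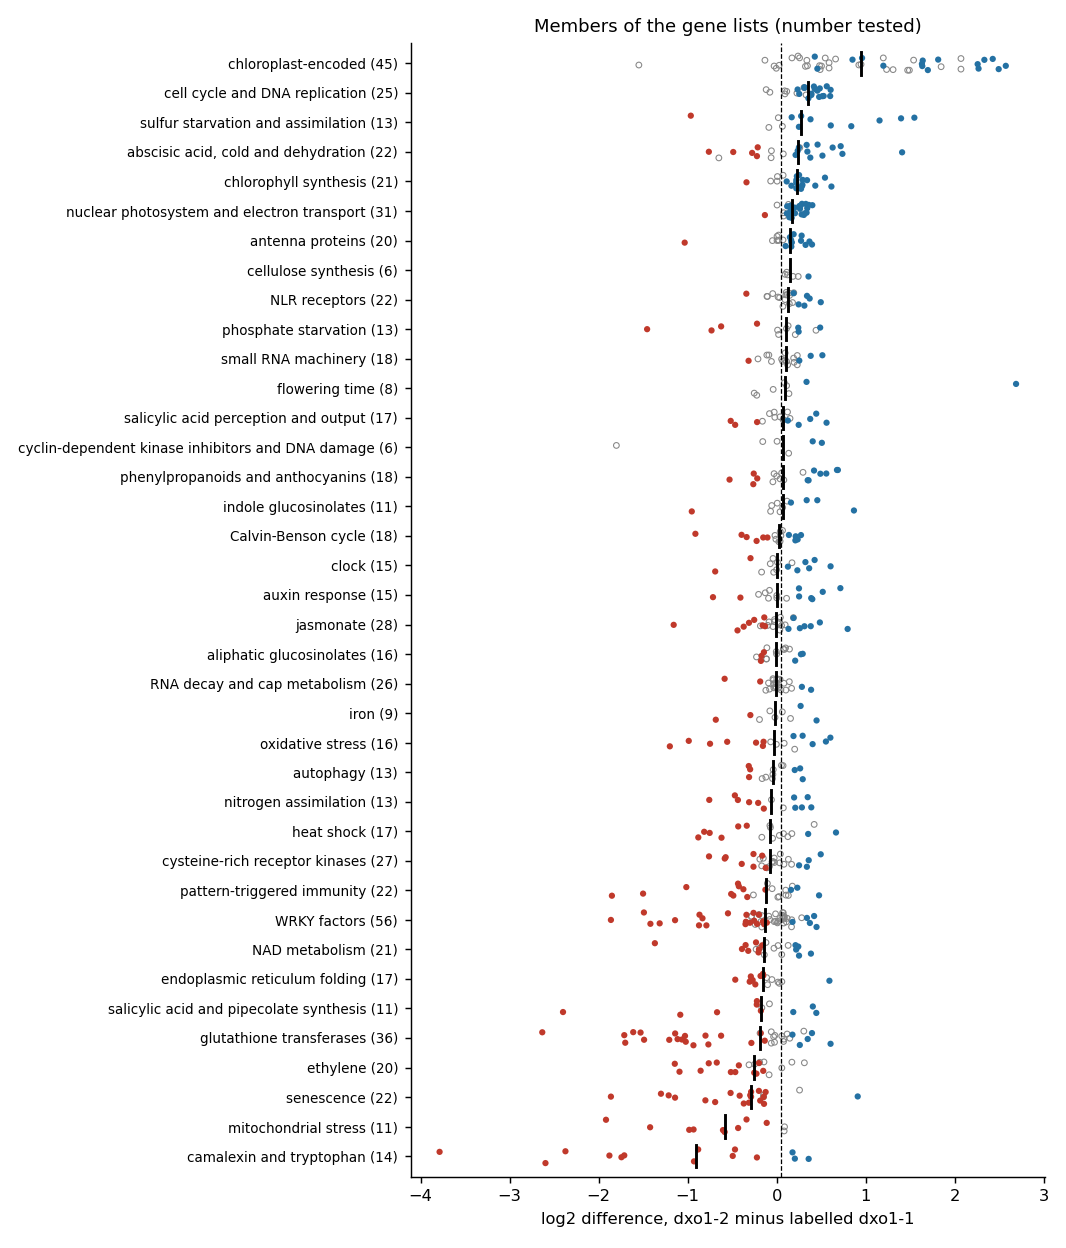
The log2 difference (dxo1-2 minus the libraries labelled dxo1-1) of each tested member of the gene lists other than cell type markers and mitochondrion-encoded genes, filled blue or red where it passed and open grey where it did not, with a black bar at each list's median and a dashed line at the median of all genes tested, 0.055. Of the lists drawn, camalexin and mitochondrial stress genes lie farthest to the left with medians of -0.90 and -0.58, and chloroplast-encoded genes farthest to the right at 0.95.

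Nutrient lists held calls in both directions, to be set beside 22.7% higher and 16.8% lower of all genes. The iron list lay near both shares, and the phosphate list near the higher one. Of 13 nitrogen genes 5 were higher (38.5%) and 6 lower (46.2%). The higher count was 2 without replicate 1 or 2 of the libraries labelled dxo1-1 or replicate 1 of dxo1-2, and 3 without replicate 3 of dxo1-2. NRT1.1, a nitrate transporter and sensor, was lowest, at 17.63, 18.25 and 16.4 FPKM in dxo1-2 against 30.4, 32.0 and 28 in the dxo1-1-labelled libraries (log2 -0.76, adjusted p = 6.69e-05). Of 13 phosphate starvation genes 3 were higher (23.1%) and 4 lower (30.8%), with the transporter PHT1;1 at 3.64, 2.46 and 3.54 FPKM in dxo1-2 against 11.5, 10.6 and 9.29 in the dxo1-1-labelled libraries (log2 -1.45, adjusted p = 7.87e-05). AT5G03545, which is in none of the lists, was among the 12 highest genes at 13.9, 15.5 and 13.6 FPKM in dxo1-2 against 4.74, 4.21 and 3.81 in the dxo1-1-labelled libraries (log2 1.55, SE 0.09, adjusted p = 7.58e-06), with Col-0 at 9.9, 16.1 and 11.3. Of 9 iron genes 2 were higher (22.2%) and 2 lower (22.2%), NAS1, of metal chelator synthesis, at 21.1, 18.1 and 18.9 FPKM in dxo1-2 against 32.7, 31.0 and 31.4 in the dxo1-1-labelled libraries (log2 -0.68, adjusted p = 9.33e-05) and the ferritin FER4 at 75.6, 72.1 and 75.6 FPKM in dxo1-2 against 52.3, 55.9 and 54.7 in the dxo1-1-labelled libraries (log2 0.45, adjusted p = 0.00011).

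Of 18 phenylpropanoid genes 7 were higher (38.9%, against 22.7% of all genes) and 4 lower (22.2%, against 16.8%). TT5, a chalcone isomerase, stood at 44.4, 39.5 and 42.6 FPKM in dxo1-2 against 27.1, 24.6 and 25.6 in the dxo1-1-labelled libraries (log2 0.69, adjusted p = 6.04e-05) and FLS1, a flavonol synthase, at 21.6, 21.1 and 23.52 FPKM in dxo1-2 against 12.9, 13.4 and 13.9 in the dxo1-1-labelled libraries (log2 0.68, adjusted p = 8.81e-05). TT4, the abundant first enzyme, did not pass (log2 0.08, adjusted p = 0.138).

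Among flowering genes MAF5 differed most. MAF5, a relative of FLC, stood at 8.06, 6.42 and 6.34 FPKM in dxo1-2 against 0.33, 0 and 0.38 in the dxo1-1-labelled libraries (log2 2.69, SE 0.16, adjusted p = 8.11e-06) and at 2.65, 3.87 and 3.26 in Col-0. The libraries labelled dxo1-1 were near 0 and dxo1-2 lay above wild type, with no overlap among the groups. MAF1 was higher by little (log2 0.34, adjusted p = 0.0175), and that call was lost without replicate 2 of dxo1-2 (adjusted p = 0.0668). SVP (log2 0.11, adjusted p = 0.0789) and SOC1 (log2 -0.04, adjusted p = 0.651) did not pass. MAF genes 2 to 5 are tandem copies, so reads may be shared. Of the clock list 6 of 15 genes were higher (40%) and 2 lower (13.3%), TOC1 at 48.4, 45.2 and 47.5 FPKM in dxo1-2 against 35.3, 33.6 and 35.3 in the dxo1-1-labelled libraries (log2 0.43, adjusted p = 0.000222) and PRR9 at 8.25, 8.72 and 11.2 FPKM in dxo1-2 against 15.4, 15.6 and 15.9 in the dxo1-1-labelled libraries (log2 -0.69, adjusted p = 0.00103). The clock count was 3 higher without replicate 1 or 2 of the libraries labelled dxo1-1. The sources used here do not state collection times.

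The genes nearest to DXO1 in function differed little. Of 26 genes for decapping, RNA decay and cap binding 2 were higher, 2 lower and 22 missed the threshold, a share below that of all genes in both directions. DCP2, the decapping enzyme, stood at 16.9, 16.6 and 16.8 FPKM in dxo1-2 against 13.4, 11.6 and 12.7 in the dxo1-1-labelled libraries (log2 0.39, SE 0.065, adjusted p = 0.00211). The deadenylase CAF1a stood at 44.0, 42.1 and 39.4 FPKM in dxo1-2 against 65.2, 65.0 and 59.4 in the dxo1-1-labelled libraries (log2 -0.58, SE 0.057, adjusted p = 0.000121). The nuclear exonuclease XRN3 passed as lower at log2 -0.18 (adjusted p = 0.0339), and missed the threshold when any one library other than dxo1-2 replicate 3 was left out (adjusted p up to 0.0996). DCP5 (log2 -0.01, adjusted p = 0.909) did not pass. Of 18 small RNA pathway genes 3 were higher (16.7%, against 22.7% of all genes) and 1 lower (5.56%, against 16.8%). HYL1, a microRNA processing partner, stood at 12.5, 12.9 and 12.8 FPKM in dxo1-2 against 8.32, 8.07 and 9.55 in the dxo1-1-labelled libraries (log2 0.51, adjusted p = 0.00099) and AGO2 at 20.9, 17.9 and 19.4 FPKM in dxo1-2 against 23.9, 24.6 and 24.5 in the dxo1-1-labelled libraries (log2 -0.31, adjusted p = 0.00514).

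NAD genes showed 5 higher (23.8%, near the 22.7% of all genes) and 8 lower (38.1%, against 16.8%) of 21. NIC3, a nicotinamidase of NAD salvage, differed most, at 0.53, 0.22 and 0.44 FPKM in dxo1-2 against 1.88, 3.58 and 2.5 in the dxo1-1-labelled libraries (log2 -1.37, SE 0.19, adjusted p = 0.000803). NDT1, an NAD carrier, was lower (log2 -0.39, adjusted p = 0.00168), and NUDT19, of the Nudix hydrolases, was higher at 64.9, 65.2 and 62.4 FPKM in dxo1-2 against 47.0, 49.0 and 50.7 in the dxo1-1-labelled libraries (log2 0.39, adjusted p = 0.00028). The lower count was 3 and 4 without replicates 1 and 3 of the libraries labelled dxo1-1, and 5, 3 and 5 without replicates 1, 2 and 3 of dxo1-2. The higher count was 3 without replicate 1 or 2 of the libraries labelled dxo1-1 or replicate 1 or 3 of dxo1-2.

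A few genes were listed at 0 throughout one line. AT2G11405 was listed at 0 in the libraries labelled dxo1-1 and in Col-0, and at 6.67, 6.75 and 4.29 FPKM in dxo1-2. AT3G12960 was listed at 0 in the same 6 libraries and at 2.52, 2.54 and 4.83 in dxo1-2. In the other direction, AT5G46890 was listed at 0 in dxo1-2. Col-0 held 8.7, 6.41 and 6.73 FPKM and the libraries labelled dxo1-1 held 2.87, 5.51 and 5.35, so the listing at 0 set dxo1-2 apart from both other groups. AT3G60286, at 4.2, 4.73 and 3.63 FPKM under the label dxo1-1, and AT3G61185, at 1.59, 3.57 and 4.19 FPKM there, were listed at 0 in dxo1-2. AT1G43675 varied there, at 9, 1.68 and 7.9. In all, 4 genes were listed at 0 in every library labelled dxo1-1 with at least 1 FPKM in every dxo1-2 library, and 7 the other way round. A value of 0 in FPKM can be a failed estimate.

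Chloroplast genes and ribosomal RNA made up 8 of the 12 highest genes in dxo1-2 and spread widely between its libraries. Of 45 chloroplast-encoded genes tested of 133, 16 were higher (35.6%, against 22.7% of all genes), none (0) lower and 29 missed the threshold. Their median was 0.95. RBCL, the large subunit of Rubisco, stood at 9.93, 61.8 and 27.9 FPKM in dxo1-2 against 2.9, 4.37 and 6.39 in the dxo1-1-labelled libraries (log2 2.33, SE 0.54, adjusted p = 0.00998), and PSBA, a core protein of photosystem II, at 45.6, 294 and 144 FPKM in dxo1-2 against 18.3, 26.0 and 33.0 in the dxo1-1-labelled libraries (log2 2.27, SE 0.57, adjusted p = 0.0135). PSBC, an antenna protein of that core, stood at 3.56, 21.8 and 8.19 FPKM in dxo1-2 against 1.07, 2.63 and 3.23 in the dxo1-1-labelled libraries (log2 1.64, SE 0.52, adjusted p = 0.0372). The chloroplast ribosomal RNA RRN23S.1 stood at 101, 833 and 430.4 FPKM in dxo1-2 against 25.3, 97.3 and 66.0 in the dxo1-1-labelled libraries (log2 2.57, SE 0.74, adjusted p = 0.0244), and RRN16S.1 at 109, 714 and 417 FPKM in dxo1-2 against 30.2, 105 and 62.5 in the dxo1-1-labelled libraries (log2 2.43, SE 0.66, adjusted p = 0.0202). The second copies RRN23S.2 (log2 2.50, adjusted p = 0.0149) and RRN16S.2 (log2 2.26, adjusted p = 0.0297) may share reads with these. In each of these genes dxo1-2 replicate 2 was highest, replicate 3 next and replicate 1 lowest. Col-0 had the same order in each, with RRN23S.1 at 50.6, 232 and 93.9 FPKM. In the libraries labelled dxo1-1, replicate 1 was also lowest in each, and replicate 2 or 3 was highest.

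The order of the dxo1-2 and Col-0 replicates was the same in a ribosomal RNA gene of chromosome 3. AT3G41768 stood at 745, 3732 and 2044 FPKM in dxo1-2 against 399, 618 and 623 in the dxo1-1-labelled libraries (log2 1.73, SE 0.50, adjusted p = 0.0241), and at 557, 1269 and 779 in Col-0. Chloroplast genes summed to 216 to 500.1 FPKM in the libraries labelled dxo1-1, and to 598, 3657 and 1986 in dxo1-2. Col-0 ranged from 401 to 1259, so dxo1-2 replicate 1 lay within the wild-type range. The part that these differences between libraries have in the calls was not tested.

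Leaving out libraries changed many of these calls. Without dxo1-2 replicate 2, 12 chloroplast-encoded genes were higher with a median of 0.48, and PSBC (adjusted p = 0.0823), RRN23S.1 (adjusted p = 0.0838), RRN16S.1 (adjusted p = 0.0724), RRN16S.2 (adjusted p = 0.0954) and AT3G41768 (adjusted p = 0.0638) no longer passed. The count was 6 without replicate 1 of the libraries labelled dxo1-1 and 7 without replicate 3 of dxo1-2. These 5 calls and that of RRN23S.2 were lost without either of these libraries. The adjusted p was 0.116 and 0.083 for PSBC, 0.0795 and 0.0792 for RRN23S.1, 0.068 and 0.0693 for RRN16S.1, 0.097 and 0.0924 for RRN16S.2, 0.0788 and 0.0758 for AT3G41768, and 0.0526 and 0.0541 for RRN23S.2. PSBC (adjusted p = 0.0726), RRN16S.2 (adjusted p = 0.0551) and AT3G41768 (adjusted p = 0.0511) were also lost without replicate 2 of the libraries labelled dxo1-1. RPOB, a subunit of the chloroplast RNA polymerase named after its values were seen, had a narrow spread at 7.36, 7.43 and 7.49 FPKM in dxo1-2 against 5.59, 5.12 and 5.08 in the dxo1-1-labelled libraries (log2 0.43, SE 0.074, adjusted p = 0.00237). ATPB, of the ATP synthase, did not pass (log2 -0.03, adjusted p = 0.89). The mitochondrial genome held 13 genes above the filter and none (0) passed with limma, while at most 2 passed as higher and 1 as lower when a library was left out.

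AT1G67785 had the highest difference among those averaging 5 FPKM or more, at 137, 143 and 211 FPKM in dxo1-2 against 0, 0 and 45.5 in the dxo1-1-labelled libraries (log2 5.49, SE 1.29, adjusted p = 0.0106). Without replicate 3 of the libraries labelled dxo1-1 its log2 difference was 7.33, and without replicate 1 or 2 it was 4.57. Its Col-0 values of 97.5, 0 and 23.96 also ran from 0 upward, and a value listed at 0 may be a failed estimate.

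**Figure D5:**
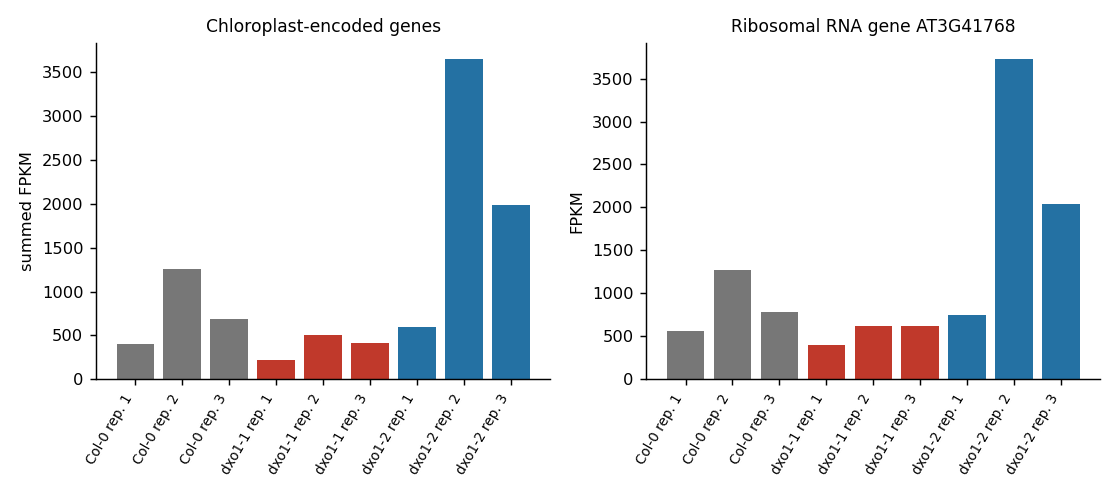
Summed FPKM of the 133 chloroplast-encoded genes (left) and FPKM of the ribosomal RNA gene AT3G41768 (right) in each of the 9 mRNA libraries, grey for Col-0, red for the libraries labelled dxo1-1 and blue for dxo1-2. The dxo1-2 replicates 2 and 3 stand above the other 7 libraries, while replicate 1 lies within the range of Col-0.

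Set beside Col-0, most genes lower by a fold of at least 2 had dxo1-2 nearer to wild type. Among the 305 genes lower by a fold of at least 2, the Col-0 mean lay below both lines in 219 (71.8%), between them in 69 (22.6%) and above both in 17 (5.57%). The libraries labelled dxo1-1 lay farther from Col-0 than dxo1-2 in 268 of these 305. Among the 55 genes higher by that fold, Col-0 lay between the lines in 32, below both in 10 and above both in 13, and the libraries labelled dxo1-1 lay farther from Col-0 in 22. Over all 4169 higher genes, Col-0 lay above both lines in 1711 and below both in 1687. The lower genes with a fold of at least 2 had a median transcript length of 976 bases, against 1492 over all genes tested, and a median mean level of 12.1 FPKM, against 15.4. The higher genes with that fold were similar in both, at 1018 bases and 10.5 FPKM. The lower genes with that fold came from all 5 chromosomes, 49 to 73 genes each, and the share of genes called was 38.9% to 40.2% per chromosome.

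Each list of cell type markers held 0 to 3 genes that passed. Of 6 root genes 2 were tested and both were lower, TIP2;3 at 0.15, 0.24 and 0.56 FPKM in dxo1-2 against 2.22, 2.05 and 1.72 in the dxo1-1-labelled libraries (log2 -1.20, adjusted p = 0.000684) and BGLU23 at 326, 293 and 312 FPKM in dxo1-2 against 373, 371 and 365 in the dxo1-1-labelled libraries (log2 -0.25, adjusted p = 0.00213). The root genes summed to 368 to 375 FPKM in the libraries labelled dxo1-1 and 293 to 327 in dxo1-2, nearly all of it BGLU23. Of 7 vascular genes 2 were higher, XCP2 of xylem (log2 0.45, adjusted p = 0.000614) and CESA4, and SUC2 of phloem was lower (log2 -0.15, adjusted p = 0.0223). Their sums were 131 to 142 and 129 to 133. The CESA4 and SUC2 calls were lost in most fits without one library (adjusted p up to 0.0868 and 0.0669). None (0) of 5 guard cell genes passed, and GL2 of trichomes was higher (log2 0.49, adjusted p = 0.00175). The 3 trichome genes summed to 7.32 to 8.80 FPKM in the libraries labelled dxo1-1 and 10.6 to 12.7 in dxo1-2. The part of these markers in the results above was not tested.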

How the data were processed

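The deposited mRNA values are FPKM, made by the authors as fragments per kilobase scaled by depth, per the labels, with a column per library and none pooled. Per the submitters' processing notes, the tools were TopHat2 2.1.0 and RSEM 2.1.30 and the genome build was TAIR10. Their order, settings and use of strand are not stated. No counts came with the table, so depth was only estimated, from the steps between low values, and used as a description.

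Groups and replicate numbers came from sample titles. Of 33602 genes, those averaging 1 FPKM or more over the 6 libraries were tested with limma 3.58.1 (eBayes with a mean-variance trend, R 4.3.3) on log2(FPKM + 1), a scale that understates changes of low genes. P-values were adjusted by Benjamini-Hochberg over all 18331 genes, with a threshold of 0.05. All adjusted p-values are from that limma fit unless a left-out library or other setting is named. No exact permutation test was run, since 3 against 3 cannot go below 0.1. The scripts were tested on simulated data.

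Members and gene lists were chosen with earlier results of these data known. Of 1085 list entries 14 could not be matched and were left out. Lists share some members, such as WRKY45 in the WRKY and senescence lists and GSTU4 in the camalexin and glutathione transferase lists. Counts of different lists are therefore not independent. Genes named were DXO1 and 4 genes on each side, the 12 highest and 12 lowest called genes averaging 5 FPKM or more with no overlap between lines, up to 4 called and 2 other members of each list, genes at 0 in one line, and the 4 most abundant per direction past a fold of 2. Exceptions are marked. RefSeq (TAIR10.1) matched 32835 genes and gave symbols, biotypes and gene order, and none of its coordinates are printed. Promoter and protein sequences were not used here. Alternatives covered the pseudocount, filter, scaling, trend, replicate block, all 9 libraries in the fit, the fold, and each library left out. One member of the ethylene list is counted in its totals but is not reported here by itself.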

Additional observations from a re-analysis of the deposited data

Results flagged for a closer look

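Among the 24 named genes with the highest and lowest differences, 3 had the lines on opposite sides of Col-0, with no overlap among the 9 libraries. The difference between the lines' departures from Col-0 is the same quantity as the contrast between the lines, so its test is the limma test of that contrast. DXO1 lay above Col-0 in the libraries labelled dxo1-1 and below it in dxo1-2, with a log2 difference of -4.78. DIN11 showed the same order with a log2 difference of -2.50. LSU3, of the sulfur starvation list, showed the reverse order with a log2 difference of 1.45. Only those 24 genes were searched here, and the counts over all called genes are given at the end. Groups of 3 libraries are too small for a test of single outlying libraries.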

How the results depend on the processing

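Over the alternatives with all 6 libraries, 3315 to 4340 genes were higher and 2759 to 3512 lower in dxo1-2, against 4169 and 3081. Leaving out single libraries gave 3250 to 3957 higher and 2626 to 2741 lower, with 54 to 72 higher and 296 to 310 lower at a fold of at least 2. Of the 7250 calls, 78.5% to 85.4% kept their direction and passed in these fits. Genes higher by a fold of at least 2 numbered 130 with a pseudocount of 0.1 FPKM, 35 with a mean of at least 5 FPKM and 464 at a fold of at least 1.5. Genes lower by the last rule numbered 846. RBCS3B, which did not pass at log2 -0.02, was at 0.18 after quantile normalization (adjusted p = 0.00055). Among named genes, values stayed on their side of the threshold in 3851 fits, passed newly in 53 and no longer passed in 112. The cause of these changes was not tested, other than the choice of fold. DXO1 ranged from -4.87 to -4.66 with single libraries left out. Rescaling to nuclear genes without ribosomal RNA, chosen after seeing the data, gave 4340 higher and 2834 lower.

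Over all genes tested, same-numbered libraries deviated together at r = 0.046, -0.018 and 0.090. These values cannot decide if the numbers pair the samples, since an effect shared by few genes would barely move them. Summed chloroplast FPKM was lowest for replicate 1 and highest for replicate 2 of every group. In replicate order, the sums were 401, 1259 and 683 for Col-0 and 216, 500 and 417 under the label dxo1-1. For dxo1-2 they were 598, 3657 and 1986. With a replicate block 4265 genes were higher and 3135 lower, 70 and 309 at a fold of at least 2, and 22 chloroplast-encoded genes were higher. Depth per library is known only as an estimate, so no counting error is given for low FPKM values.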

Other observations

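Among gene lists not described above, 15 auxin response genes gave 6 higher (40%) and 2 lower (13.3%) in dxo1-2, against 22.7% and 16.8% of all genes. IAA3, a repressor of auxin signalling, was highest at log2 0.72 (adjusted p = 7.3e-05), and GH3.5, which conjugates auxin and salicylic acid to amino acids, lowest at log2 -0.71 (adjusted p = 0.000182). Of 13 autophagy genes 3 were higher (23.1%, near the 22.7% of all genes) and 3 lower (23.1%, against 16.8%). The cargo receptor NBR1 was at log2 -0.31 (adjusted p = 0.000184) and ATG8C at log2 0.29 (adjusted p = 0.00226). Of 6 genes for inhibitors of cyclin-dependent kinases and DNA damage, SIM and BRCA1 (log2 0.41, adjusted p = 0.0134) were higher. SMR7 stood at 5.92, 0 and 5.10 FPKM in the libraries labelled dxo1-1 and was listed at 0 in dxo1-2, without passing (adjusted p = 0.0547). Of 6 cellulose synthases only CESA4 passed, at log2 0.36 (adjusted p = 0.0352). The count was 3 without replicate 2 of dxo1-2 and 0 without replicate 3 of dxo1-2 or any one library labelled dxo1-1. It was also 0 with the replicate block, with a mean of at least 5 FPKM, after median-centring and after quantile normalization. Some of these genes lie outside the naming rule and were chosen after their values were seen.

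Of the 7250 genes called among 18331 tested, 90 had every library labelled dxo1-1 above and every dxo1-2 library below all Col-0 libraries. The opposite order held for 133 of the 7250. The libraries of the lines did not overlap in 51.1% of all genes tested.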
